A study of Homo sapiens with 8 samples.

Results

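HNF4A, HNF4G, CDX1, CDX2, FOXA2, FOXA3, GATA4 and GATA6 encode transcription factors of intestine and liver, and their transcripts were followed on bead arrays of a colon carcinoma line and a melanoma line. They were chosen by name, and every probe that the array annotation ties to them was used. The annotation named 9 probes for 7 of the 8 genes, among 22184 probes and 16578 named genes on the array. HNF4A was not analysed here, because the annotation used names no probe for it. FOXA2 had 3 probes and each of the other 6 genes had 1.

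The cells were Caco2, an adherent epithelial line from a colorectal adenocarcinoma, and WM115, a melanoma line. Each line was stained with AC133, an antibody to an epitope of CD133 (the product of PROM1), and sorted into the brightest 10% (AC133 high) and the unstained cells (AC133 negative). The Caco2 culture carried a lentiviral GFP reporter under the promoter of mouse Melk and had been cloned before use. Which of its 2 clones entered which sort is not given, so Caco2 stands for a cloned, transduced derivative of the line. Each group has 2 arrays, from sort 1 and sort 2, which makes 8 arrays in all. The labels call the sorts biological duplicates of a line. The p-values therefore rest on the spread between sorts, pooled over the 4 groups, and not on the spread between donors. Whether the spread in Caco2 includes a difference between clones is not known. The study's title asks how the CD133 epitope varies with the cell cycle.

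CDX1 and CDX2 are caudal-type homeobox factors, and CDX2 sets and keeps the intestinal identity of the epithelium. FOXA2 and FOXA3 are forkhead factors that open chromatin at enhancers of liver, gut and pancreas, GATA4 and GATA6 are zinc finger factors of the developing endoderm and of the gut epithelium, and HNF4A and HNF4G are nuclear receptors that act at many of the same enhancers in hepatocytes and enterocytes. Together they drive genes of serum proteins and lipoproteins in liver and of the brush border in intestine. None of them is a factor of the melanocyte lineage, so WM115 served as a line outside their usual tissues.

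The promoter windows of CDX2 and FOXA3 are printed because both genes were detected on all 4 Caco2 arrays and on 0 of 4 WM115 arrays (below), and because the CDX2 window holds letters bound by other factors of the group. The sequences are RefSeq's on build GRCh38.p14 and run 5′ to 3′ on the gene's strand, from 250 bases before the transcription start to 50 after it. The CDX2 window is chr13:27969266-27969565 on the minus strand and the FOXA3 window is chr19:45864076-45864375 on the plus strand. Capitals mark matches to the motifs searched on both strands, each given here by its letters. The FOXA motif was TGTTTAC, and the HNF4 motif was CAAAGTCCA. The motif of CDX factors was CAATAAA. The motif of zinc finger factors of the GATA family was AGATAA, and the core promoter motif was TATAAA. The long palindrome of HNF1 was searched as well.
CDX2: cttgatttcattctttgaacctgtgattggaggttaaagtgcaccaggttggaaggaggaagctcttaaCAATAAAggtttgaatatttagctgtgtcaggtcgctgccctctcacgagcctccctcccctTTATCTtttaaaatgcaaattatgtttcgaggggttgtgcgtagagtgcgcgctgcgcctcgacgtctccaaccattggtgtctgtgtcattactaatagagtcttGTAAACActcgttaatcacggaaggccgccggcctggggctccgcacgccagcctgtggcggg
FOXA3: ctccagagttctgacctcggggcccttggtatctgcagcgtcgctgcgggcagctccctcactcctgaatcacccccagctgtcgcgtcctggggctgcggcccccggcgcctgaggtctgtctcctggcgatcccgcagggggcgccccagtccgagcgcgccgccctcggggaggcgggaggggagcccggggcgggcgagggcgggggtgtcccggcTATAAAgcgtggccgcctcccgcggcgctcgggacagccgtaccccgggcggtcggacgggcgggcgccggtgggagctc
In CDX2, the CDX match starts at base 70 on the printed strand, and the GATA match at base 132 and the FOXA match at base 238 lie on the other strand. These matches do not overlap. The only match in FOXA3 is the core promoter motif, 30 bases before the start. Of 35116 windows of the same length, 3.42% held the FOXA letters, 10.3% the GATA letters, 4% the CDX letters, 0.384% the HNF4 letters, 0.0057% the HNF1 palindrome and 11.5% the core promoter letters. A window was found for 4 of the 8 genes: that of GATA6 held none of these motifs, and those of HNF4A are left out because the gene was not measured here. A match describes the sequence and is not a measured binding site.

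Between 53.71% and 59.25% of all probes were detected per array, that is, had a detection p under 0.05 against the negative controls. Probes rested on a median of 41 to 42 beads, and the number of arrays limits the precision. PROM1 had a higher signal in the AC133 high cells in all 4 sorts, by 4.06 to 4.29 log2 units in Caco2 and by 3.32 to 3.87 in WM115. In Caco2, 8 of 10 colon epithelium markers were detected on all 4 arrays, while 6 of 9 melanocyte markers with a probe, SOX10 and MLANA among them, were detected on none. PMEL was detected on all 4 Caco2 arrays, and MITF and TFAP2A on 3 of 4. In WM115, 8 of these 9 melanocyte markers were detected on all 4 arrays. In the share of probes detected, the bead counts and PROM1, no array stood apart from its group. Fibroblast markers were less even in WM115. The summed signal of 8 of them was 1053 to 2594 in the negative and 1408 to 1752 in the high arrays. Of these 8 markers, 2 were detected on neither negative array and 6 on neither high array. Each marker behind this contrast was detected on only 1 of the 2 negative arrays, so the contrast does not describe the group.

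The levels below are normalized log2 signals, background corrected and scaled to a common distribution over the 8 arrays. The lowest level of a probe above background lay between 4.68 and 4.84, depending on the array. A level belongs to its own probe and is not compared between probes, which differ in brightness. In bulk RNA of sorted cells, fewer cells that express a factor and less RNA per cell cannot be told apart.

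CDX2 was well above background in all Caco2 samples and in no WM115 sample. On probe ILMN_1684819 its log2 signal in the AC133 high Caco2 cells was 9.25 in sort 1 and 9.34 in sort 2, and in the negative cells 8.57 and 9.09. In WM115 the values were 4.41 and 4.53 in the high cells and 4.47 and 4.40 in the negative cells, all at background. The lowest Caco2 array thus lay far above every WM115 array. CDX1, the paralogue of CDX2 that is also found in intestinal crypts, was detected on 0 of the 8 arrays (ILMN_1815619), with log2 signals from 4.30 to 4.47. A probe at background gives an upper bound for the transcript it targets, not an absence of the gene's product.

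FOXA2 was read by 3 probes that disagree. On ILMN_1668052 the Caco2 signals were 9.99 and 10.06 in the AC133 high cells and 10.32 and 10.12 in the negative cells, and the 4 WM115 arrays lay between 4.28 and 4.31. On ILMN_1678728 no array was detected, with values from 4.26 to 4.39. On ILMN_1763712 a single array, AC133 high Caco2 of sort 1, passed detection at a p of 0.0494 and a signal of 4.76. Only the first probe therefore carries a level for FOXA2, and the annotation ties it to the same transcript record as ILMN_1678728 and to another record than ILMN_1763712. FOXA3, the forkhead factor best known from liver, was detected on all 4 Caco2 arrays and on 0 of 4 WM115 arrays (ILMN_1804041). Its Caco2 signals were 9.03 and 9.21 in the high cells and 9.19 and 9.15 in the negative cells, with the AC133 groups interleaved. In WM115 it lay between 4.39 and 4.61.

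GATA6, the GATA factor found along the whole length of the gut, had a moderate signal in Caco2 and one near the detection limit in WM115 (ILMN_1695041). In Caco2 it was 6.73 and 6.66 in the AC133 high cells and 6.63 and 6.42 in the negative cells. In WM115 it was 4.71 and 4.77 in the high cells and 4.93 and 4.83 in the negative cells, and 3 of the 4 arrays passed detection. On this normalized scale the negative WM115 arrays were both slightly above the high ones. On raw intensities the negative array of sort 2 was not above its high array, at 49.79 against 51.82 units. GATA4, which in the gut marks the proximal small intestine, was detected on none of the 8 arrays (ILMN_1749866), with signals from 4.37 to 4.61. The WM115 arrays of GATA4, at 4.50 to 4.61, read above those of Caco2, at 4.37 to 4.45, but all were within the background, so no difference is drawn from them.

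HNF4G, the intestinal paralogue of HNF4A, was detected on every Caco2 array at a signal close to the detection limit (ILMN_1712595). Its Caco2 signals were 5.50 and 5.54 in the AC133 high cells and 4.86 and 5.42 in the negative cells. In WM115 they were 4.82 and 4.74 in the high cells and 4.93 and 4.58 in the negative cells, and 2 of 4 arrays passed detection, the high and the negative array of sort 1. The negative Caco2 array of sort 1 overlapped the WM115 range, so the lines were not separated on every array. Its raw intensity of 73.4 units on the high Caco2 array of sort 1 had a standard error of 5.53 units over 31 beads.

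**Figure D1:**
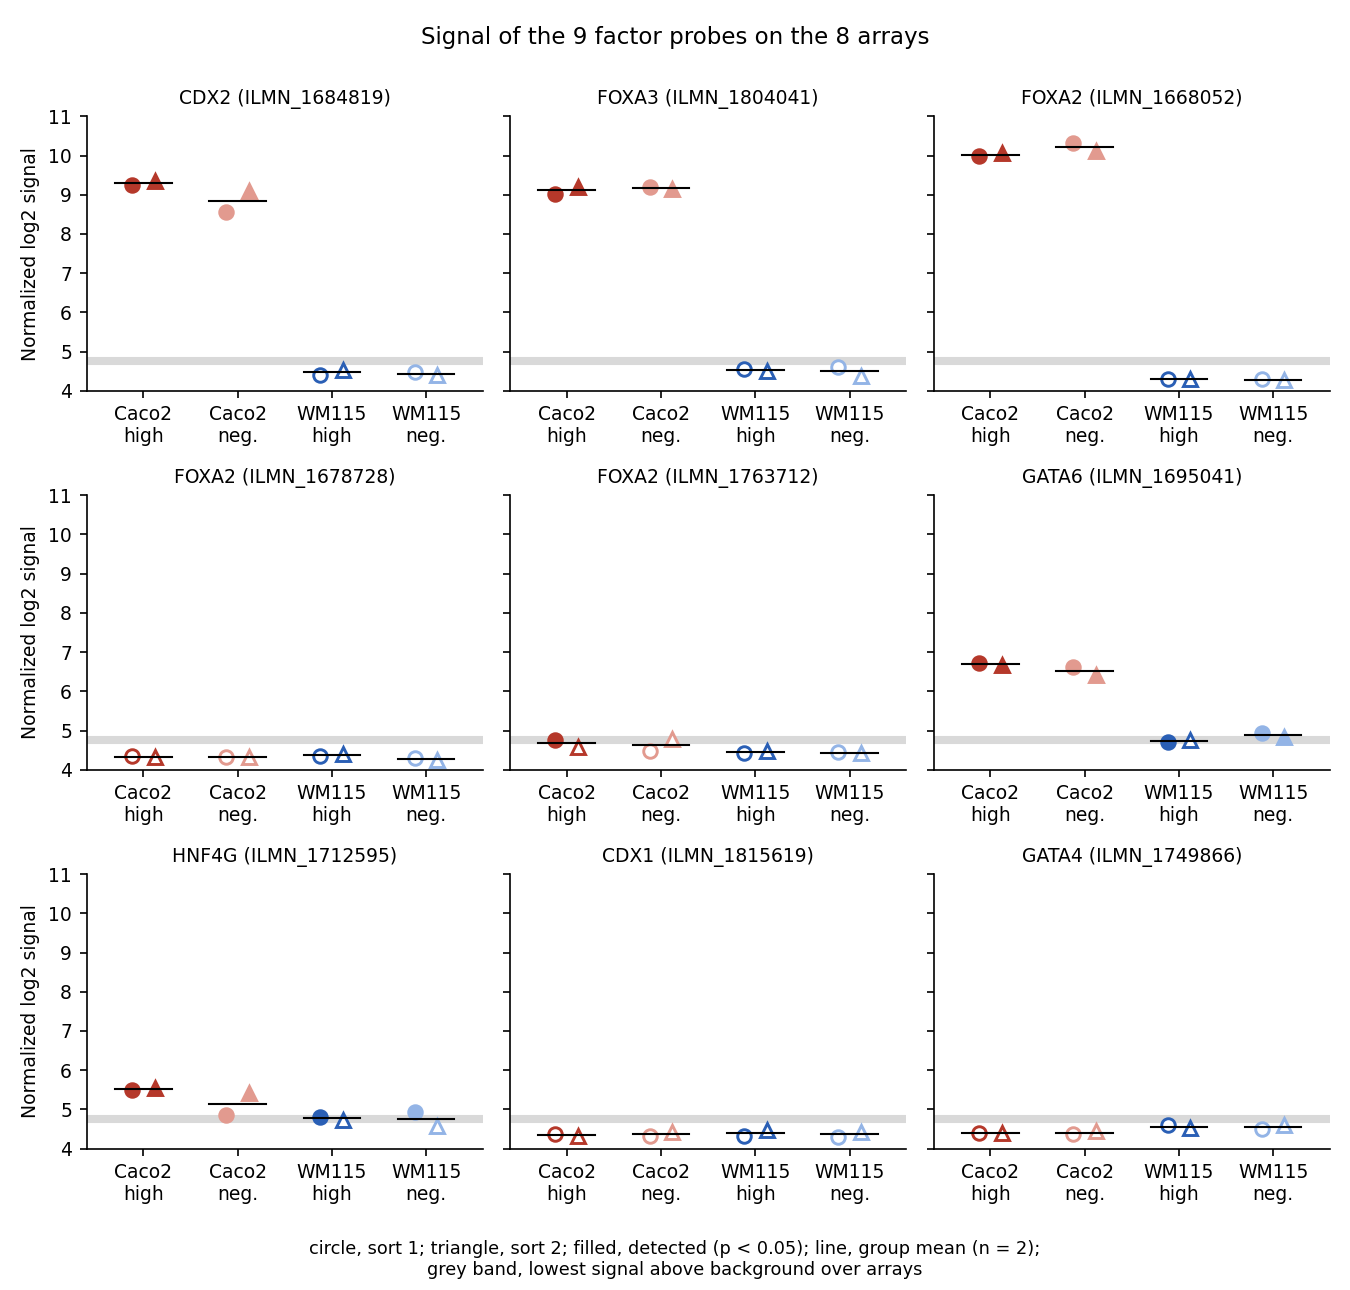
Normalized log2 signal (vertical axis) of each of the 9 probes in the 4 groups, with 1 point per array, filled where the probe was detected. Lines are group means of n = 2 and the grey band spans the lowest level above background, 4.68 to 4.84. CDX2, FOXA3 and 1 FOXA2 probe stand at 8.57 or above in Caco2 and within the background in WM115, and CDX1, GATA4 and the other FOXA2 probes stay at background on every array but 1, the high Caco2 array of sort 1 on ILMN_1763712.

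The comparison of the lines asked how far these factors differ between a colon and a melanoma line. Of the 9 probes 5 passed the filter, which required detection on both arrays of at least 1 group, and 4 were not tested. The 5 passed through Caco2, and CDX2, FOXA2, FOXA3 and HNF4G through Caco2 alone. For CDX2, FOXA2 and FOXA3, detected on 0 of 4 WM115 arrays, the filter set the direction. For HNF4G, detected on 2 of 4, it favoured a higher level in Caco2. All 5 were called higher in Caco2 at an adjusted p under 0.05, against a background of 29.6% of all tested probes that were called higher. The count is therefore partly set by the filter, and the sizes are given in its place.

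With the offset of 16 in the background correction, FOXA2 was at least 42.3-fold higher in Caco2 than in WM115. Its WM115 level is bounded there by the lowest signal above background. The bound was 21.4-fold for FOXA3 and 20.2-fold for CDX2. Bounds are given because these 3 probes were detected on 0 of 4 WM115 arrays, and they hold for that offset only. As these 3 probes passed the filter through Caco2 alone, their tests are no independent sign of direction. Their fitted log2 differences were 5.83 for FOXA2 (limma adjusted p = 3.18e-09), 4.63 for FOXA3 (6.7e-09) and 4.61 for CDX2 (2.07e-08). They are taken against background readings. With a larger offset (50 in place of 16) they came to 4.42, 3.40 and 3.35, and all remained called. These values lie below the bounds at 16, which are 5.4, 4.42 and 4.34 log2 units. The bounds are thus no minimum for the ratio of RNA.

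GATA6 was 3.47-fold higher in Caco2, a log2 difference of 1.80 (SE 0.11, 95% interval 1.55 to 2.04, limma adjusted p = 1.56e-06), and its lowest Caco2 array, at 6.42, stood above its highest WM115 array, at 4.93. HNF4G was 1.48-fold higher, a log2 difference of 0.57 (SE 0.15, interval 0.22 to 0.91, limma adjusted p = 0.0114), with the overlap described above. As it passed the filter through Caco2 alone, and 2 of 4 WM115 arrays measured it, this test is no independent sign of its direction. Over all alternatives HNF4G ran from 0.28 to 0.71 log2 units and GATA6 from 1.08 to 1.85.

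**Figure D2:**
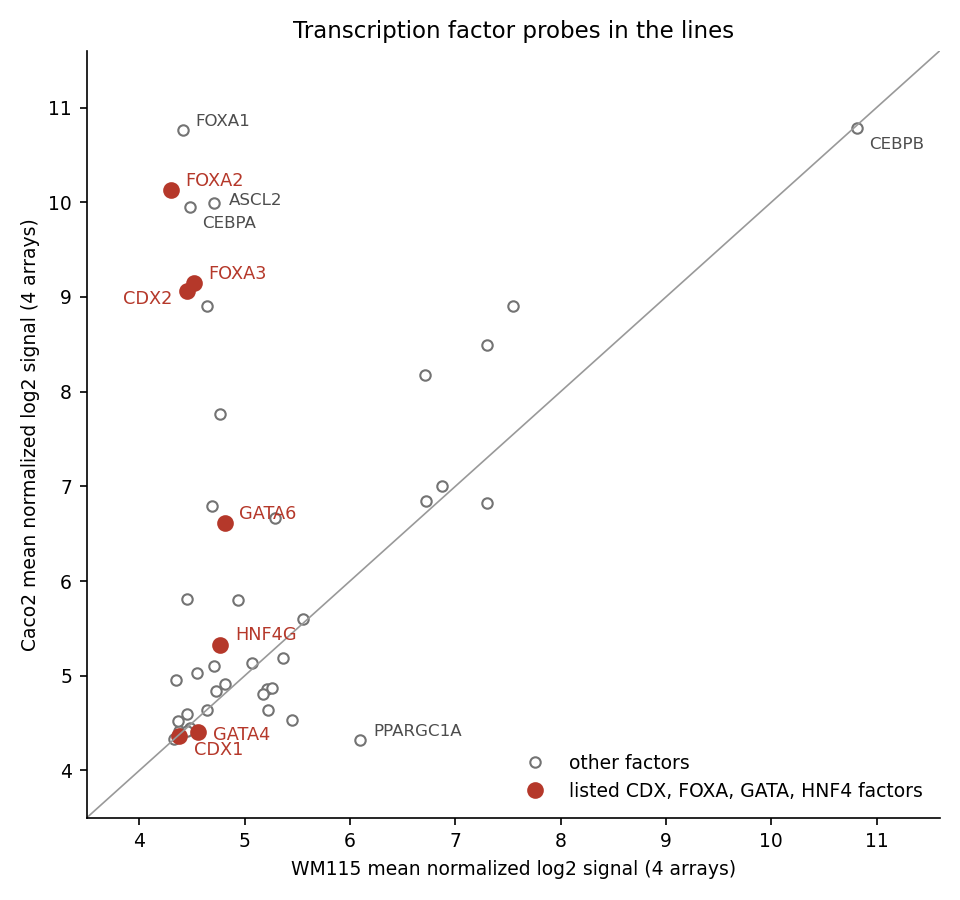
Mean normalized log2 signal over the 4 WM115 arrays (horizontal) and the 4 Caco2 arrays (vertical), each circle being the probe of 1 transcription factor gene, and the diagonal marking equal signal. FOXA2, FOXA3 and CDX2 lie far above the diagonal at the WM115 background, GATA6 and HNF4G are closer to it, and CDX1 and GATA4 sit at background in both lines. CEBPB lies on the diagonal at a high level, while FOXA1, ASCL2 and CEBPA stand in the same corner as FOXA2.

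The comparison of AC133 high with negative cells asked whether the same factors vary with the epitope inside a line. In Caco2 none of the 5 tested probes passed: limma called 0 of 5 in either direction, against 0.773% of all tested probes, and 1 of them, CDX2, had an unadjusted p under 0.05. The methods' t-test gave 0 of 5 an unadjusted p under 0.05. Their fitted log2 differences ran from -0.19 to 0.46, with a median of 0.17, while the 10th and 90th percentiles of all tested probes were -0.30 and 0.30. Over all 7 genes with a probe, detected or not, the median was 0.00.

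CDX2 had a difference of 0.46 (SE 0.19, 95% interval 0.02 to 0.90), that is 1.38-fold, with a limma p of 0.0409 and an adjusted p of 0.61. The high cells were above the negative cells in both sorts, by 0.68 in sort 1 and by 0.25 in sort 2. On the raw intensities the log2 ratio was 0.73 with a bead standard error of 0.08 in sort 1 (752.8 against 453.1 units) and 0.15 with 0.08 in sort 2 (510.2 against 458.3 units). The sorts thus shared a direction and differed in size, and leaving out 1 array in turn gave 0.21 to 0.72.

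HNF4G differed by 0.38 (SE 0.21, interval -0.11 to 0.87, limma adjusted p = 0.81), with 0.64 in sort 1 and 0.12 in sort 2. Before normalization its log2 ratio in sort 2 had the opposite sign, at -0.10 with a bead standard error of 0.11, so the direction in that sort is within measurement error. GATA6 differed by 0.17 (SE 0.15, interval -0.18 to 0.52, limma adjusted p = 0.958), with 0.10 and 0.24 in the sorts. Its raw log2 ratio in sort 2 was 0.03 with a bead standard error of 0.1. Both intervals include 0.

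FOXA2 and FOXA3 were level or slightly lower in the high cells. FOXA2 differed by -0.19 (SE 0.15, interval -0.53 to 0.15, limma adjusted p = 0.924), with -0.33 in sort 1 and -0.06 in sort 2. FOXA3 differed by -0.05 (SE 0.16, interval -0.41 to 0.31, adjusted p = 1), and its sorts gave -0.16 and 0.06. The upper ends of the intervals correspond to 1.11-fold for FOXA2 and 1.24-fold for FOXA3. CDX2 is less tightly bounded, with an upper end of 1.87-fold, and HNF4G has one of 1.83-fold.

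In WM115 limma called 0 of the 5 probes, against 0.0217% of all tested probes, and gave 0 of 5 an unadjusted p under 0.05. The methods' t-test gave 1 of 5 such a p, FOXA2, whose WM115 arrays were all at background. CDX2, FOXA2 and FOXA3 were not above background on any WM115 array, so their WM115 differences are readings of background and are not described. GATA6 differed by -0.14 (SE 0.15, interval -0.49 to 0.21, adjusted p = 1), with -0.22 in sort 1 and -0.06 in sort 2. Before normalization its log2 ratio in sort 2 had the opposite sign, at 0.06 with a bead standard error of 0.11. HNF4G differed by 0.03 (SE 0.21, adjusted p = 1), with -0.10 and 0.16 in the sorts. Both genes were thus at the detection limit with sort differences of a size that single arrays can give.

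The test of whether the AC133 difference itself differed between lines called 0 of the 5 probes, against 0.065% of all. For GATA6, the Caco2 difference minus the WM115 difference was 0.31 (SE 0.21, limma adjusted p = 0.97), and for HNF4G it was 0.35 (SE 0.30, adjusted p = 0.982). For CDX2 the fitted value was 0.43 (SE 0.27, adjusted p = 0.961), with a WM115 part that is all background. The missed threshold does not show that the lines act alike, since the interval for GATA6 still runs from -0.18 to 0.80.

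**Figure D3:**
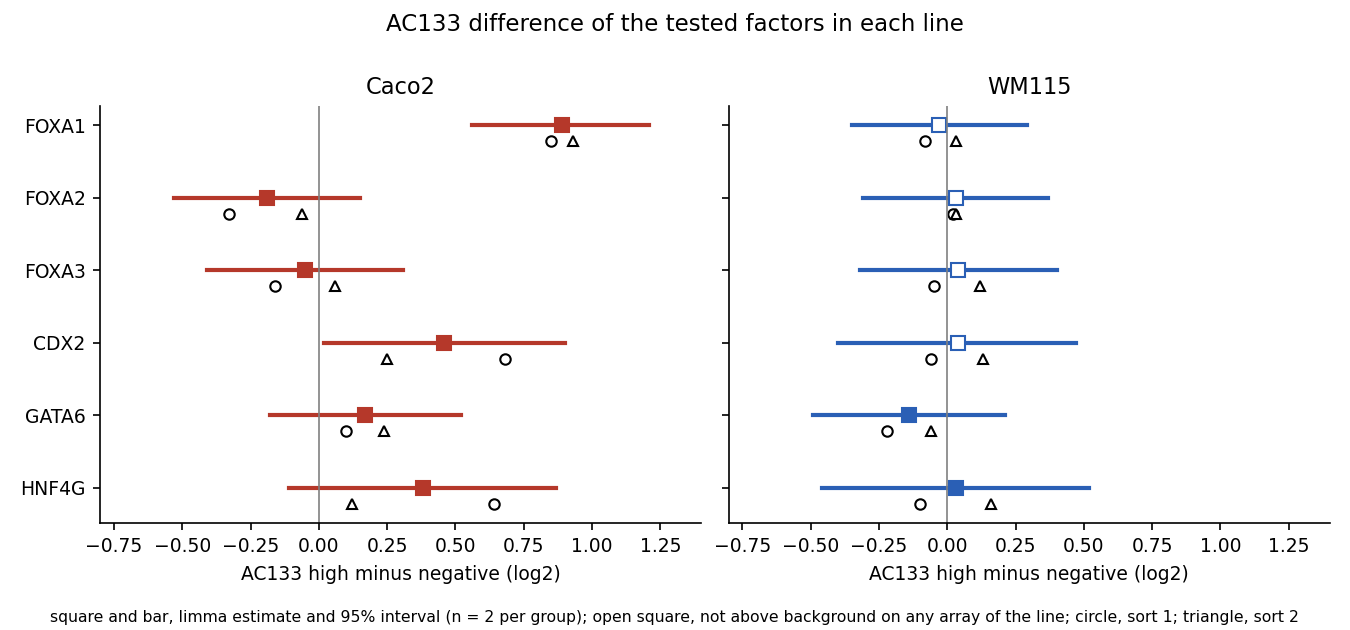
Difference between AC133 high and negative cells in log2 units (horizontal) for the 5 tested factors and their relative FOXA1, in Caco2 (left) and WM115 (right), with 95% intervals. Small symbols are the sorts. In Caco2 the interval of FOXA1, from 0.56 to 1.21, lies to the right of 0, that of CDX2 starts at 0.02 and the others include 0, and open squares in WM115 mark probes at background.

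Of the 3 relatives of these factors that were tested, FOXA1 passed in Caco2. Probes were named for GATA1, GATA2, GATA3, GATA5, FOXA1 and CDX4, and 3 of the 6 genes, GATA2, GATA3 and FOXA1, were tested. FOXA1, the third FOXA paralogue, had log2 signals of 11.18 and 11.22 in the AC133 high Caco2 cells and of 10.33 and 10.29 in the negative cells, with 0.85 and 0.93 between them in the sorts. FOXA1 rose 1.85-fold (0.89 log2 units, SE 0.14, limma adjusted p = 0.0362), in a comparison that called 0.563% of all tested probes higher. With the sort as a block its adjusted p was 0.0785, and without any 1 of the 8 arrays it was 0.0502 to 0.302, so the call rests on the full set, while the difference ran from 0.86 to 0.91 over all alternatives. FOXA1 was not above background in WM115, and its level in Caco2 was at least 65.5-fold higher. The FOXA1 interval of 0.56 to 1.21 lies above that of FOXA2 and that of FOXA3, but a difference between the paralogues was not tested. GATA3 differed by 0.50 (adjusted p = 0.396) and GATA2 by -0.34 (adjusted p = 0.782).

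No other tested transcription factor from the lists of the same tissues passed in the AC133 comparison of Caco2. Of 22 listed hepatic and endoderm factors 12 were tested in Caco2, and 0 rose and 0 fell, with a median difference of -0.05. PROX1, a homeobox factor of early liver and an intestinal Wnt target, came nearest, at -1.03 (SE 0.21, adjusted p = 0.0882), with -1.13 and -0.92 in the sorts. Of 19 intestinal factors 15 were tested, and again 0 rose and 0 fell, with a median of -0.04, against a median of 0.00 over all genes. CDX2, FOXA2 and FOXA3 shared their line pattern with CEBPA, a hepatic leucine zipper factor at least 37.4-fold higher in Caco2. SOX9, a factor of crypt cells, was at least 18.1-fold higher. The lists were mixed between lines: 5 of the 12 hepatic and endoderm factors were called higher in Caco2 and 3 lower (median 0.13). Of the 15 intestinal factors 7 were called higher and 2 lower (median 0.11). Over all 13844 tested probes 4091 were called higher and 4037 lower.

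Genes known as targets of the group in liver and gut were also counted. Their lists were written with earlier results of these data known, so the counts are a description and no independent support. Of 32 hepatic targets 24 were tested, all of them detected on all 4 Caco2 arrays. Between AC133 high and negative Caco2 cells 4 rose and 0 fell, in a comparison that called 0.563% of all tested probes higher, and 23 of the 24 had a positive difference, with a median of 0.54 against 0.00 over all genes. ALB, serum albumin, rose by 3.03 log2 units (SE 0.21, adjusted p = 0.00137) and AFP, its fetal relative, by 3.31 (SE 0.25, adjusted p = 0.00206). FGB and FGA, chains of fibrinogen, rose by 2.10 and 1.29 (adjusted p of 0.00895 and 0.0237). Of the 3 tested probes of FGA, only the one with the highest mean signal is described. FGB lost its call without the high array of sort 2 (adjusted p = 0.105) or the negative array of sort 1 (0.0749). FGA lost its call without either high Caco2 array (0.138 and 0.24), without the negative array of sort 1 (0.162) or without either high WM115 array (0.0647 each), and with no filter on low values (0.0512). Over all 31 hepatic targets with a probe, detected or not, the median was 0.29.

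Of 30 intestinal targets 19 were tested, and 2 rose and 0 fell in the AC133 high Caco2 cells, again beside 0.563% of all tested probes called higher. MEP1A, a metalloprotease of the enterocyte surface, rose by 1.65 log2 units (SE 0.15, adjusted p = 0.00517). DPP4, a dipeptidyl peptidase of the same membrane, rose by 1.21 (SE 0.17, adjusted p = 0.0213). MEP1A lost its call without either high Caco2 array (0.0619 and 0.0662), and DPP4 without any 1 of the 4 Caco2 arrays (0.0638 to 0.225) or without either high WM115 array (0.0621 each), and with median scaling (0.0571). At an offset of 50, MEP1A differed by 1.02 log2 units and kept its call. With the sort as a block 3 rose, the third being KRT20, a keratin of mature enterocytes (1.36 log2 units, adjusted p = 0.275 without and 0.0454 with the block). Of the 19 genes 18 had a positive difference, and 3 of them passed the filter only through the AC133 high arrays. The median was 0.54 over the tested genes and 0.15 over all 28 with a probe. No target rose or fell in WM115, where 24 of 31 hepatic and 23 of 28 intestinal targets were detected on no array.

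Summed markers of other cell types also differed between the Caco2 groups. The summed signal of 8 fibroblast markers was 653.8 to 815.6 in the AC133 high and 314.6 to 506.2 in the negative arrays, mostly from PDGFRA, with 3 of 8 markers at background on every Caco2 array, among them COL1A2 and DCN. The summed blood markers ran the other way, 2847 to 3800 against 4205 to 5590, mostly from LYZ, with CD3E and HBB at background on every array. Of the tested markers of both lists, 0 passed in the Caco2 AC133 comparison, and their part in the results was not tested. The colon epithelium markers summed to 33030 to 33230 in the high and 29420 to 31310 in the negative arrays.

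**Figure D4:**
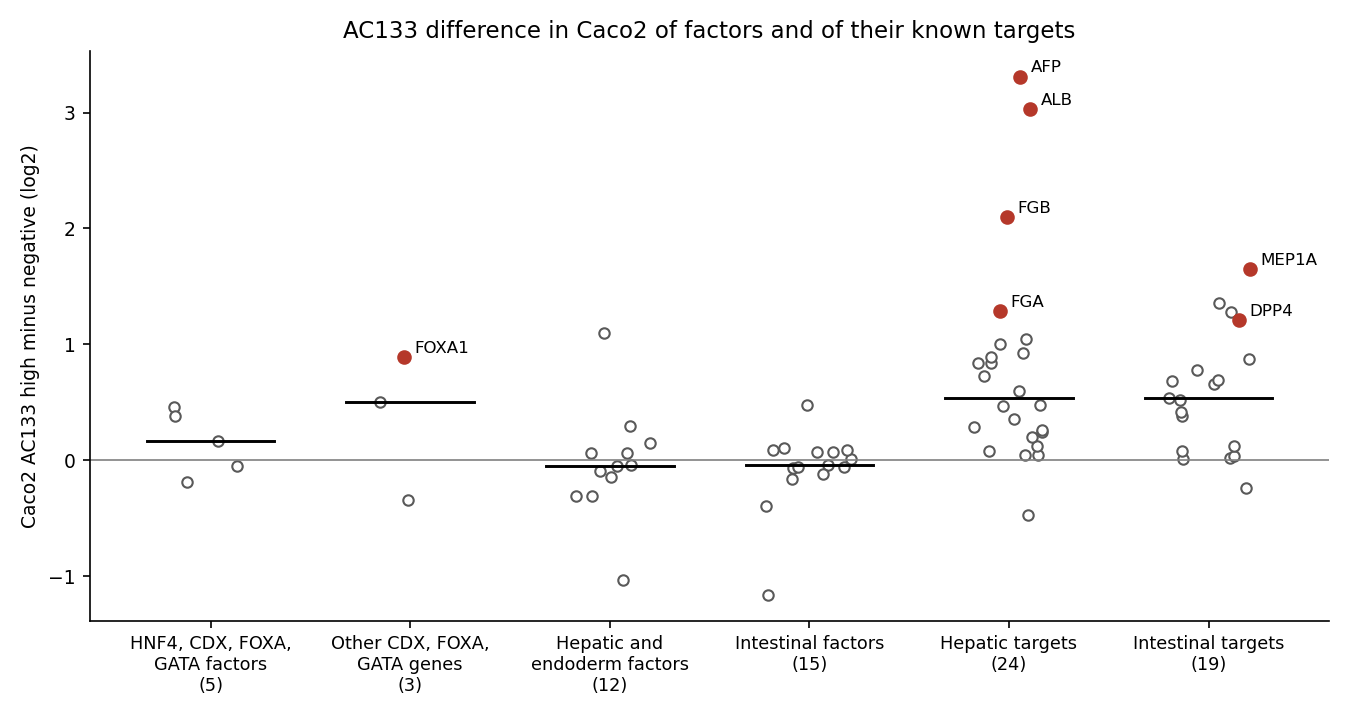
Difference between AC133 high and negative Caco2 cells in log2 units (vertical) of each tested gene in 6 lists, with the number tested in brackets and lines at list medians. Filled circles passed at an adjusted p under 0.05 and carry names. The 5 factors of the group lie between -0.19 and 0.46, and the named genes FOXA1, ALB, AFP, FGB, FGA, MEP1A and DPP4 reach up to 3.31.

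The profiles of the factors over the 8 arrays were set against those of 11213 other genes, each profile centred on its mean, by the root mean square distance in log2 units. This measure is led by the difference between the lines and is given as a description. The genes nearest to CDX2 were A1CF, which encodes an RNA-binding partner of the APOB editing enzyme, at a distance of 0.11, HSD3B1 and PAWR at 0.17 each. Nearest to FOXA3 were GPX3, a secreted glutathione peroxidase, at 0.11, APOH, a liver plasma protein, at 0.12 and MAP7D2 at 0.13. FOXA2 was followed most closely by GPC3, a cell surface proteoglycan of fetal liver, at 0.12, MAL2 at 0.14 and VAMP8 at 0.15. The Caco2 AC133 difference of A1CF, 0.49 against 0.46 for CDX2, is part of the profile by which A1CF was picked. It is therefore no further likeness, and by sort A1CF had 0.51 and 0.46 where CDX2 had 0.68 and 0.25.

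Within the group, CDX2 and FOXA3 were 0.24 apart, farther than either was from its nearest gene, FOXA2 and FOXA3 0.61 and CDX2 and FOXA2 0.68, while HNF4G and FOXA2 were the most distant pair at 2.65. GATA6 was nearest to SALL2 and F10 at 0.08 each and to HELLS at 0.10. HNF4G was nearest to ERCC8 at 0.07. The small distances of the last pair of factors are common: 376 genes lay within 0.3 of GATA6 and 1605 within 0.3 of HNF4G, but 43 of CDX2, 51 of FOXA3 and 20 of FOXA2.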

How the data were processed

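The members, the gene lists and the tests were chosen with earlier results of these data known. Total RNA of the 8 sorted samples was amplified and hybridised to HumanRef-8 v2 bead arrays. Per the file headers, the deposited per-array files hold, for every probe, a linear bead intensity, a detection p-value, the bead count and the bead standard error. They do not say if background was removed, and their medians differ between arrays. The authors' joint table holds the same intensity after quantile normalization, per the labels' protocols, and was an alternative.

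Probes were named through the platform annotation, with symbols updated by gene number for 19695 of 19715 named probes, and a gene with several tested probes is given by the one with the highest mean signal. In limma 3.58.1 (R 4.3.3), normexp removed background with an offset of 16 (negative controls being reconstructed from detection p-values), and quantile normalization and log2 followed. Testing required detection (p under 0.05) in both arrays of some group and kept 13844 probes. A model of the 4 group means on 8 arrays (4 residual and 4.35 prior degrees of freedom) gave the AC133 difference of either line, the contrast of those differences and the contrast of the lines. All tests were two-sided, with Benjamini-Hochberg adjustment over all tested probes, at 0.05. An exact permutation of 2 against 2 arrays cannot give a p below 0.333. The bounds marked "at least" take, per array, the higher of the lowest signal above background and the probe's own. They hold for the offset of 16 and are not minimum ratios of RNA. The code was tested on simulated data.

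Named genes are every member, PROM1, for each list those past the threshold in Caco2 and up to 4 more with the smallest p in each comparison, and the 3 genes nearest to a detected member. Markers named for being at background, or detected in the other line, were chosen after their values were seen. The sort numbers in the labels mark a shared sort, so they pair the samples of a line, and the correlation of paired deviations was 0.281 in Caco2 and 0.177 in WM115. The alternatives were other background corrections, offsets, scalings and filters, the authors' values, the sort as a block, a line alone, the methods' t-test and leaving out 1 array.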

Additional observations from a re-analysis of the deposited data

Results flagged for a closer look

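The AC133 difference was larger in Caco2 than in WM115 for ALB, by 3.08 log2 units (SE 0.29, limma adjusted p = 0.0128), and for AFP, by 3.31 (SE 0.35, adjusted p = 0.0209), both by the test of the difference itself. ALB was detected on 1 of 4 and AFP on 0 of 4 WM115 arrays, so the WM115 part of both values is background. FOXA2 was listed because its sorts had opposite signs in the lines, with a difference between lines of -0.22 (SE 0.21, limma adjusted p = 0.99), but all its WM115 arrays were at background, so no direction can be read there. After normalization, GATA6 was higher in the AC133 high cells in both Caco2 sorts and lower in both WM115 sorts. The difference was 0.31 (SE 0.21, limma adjusted p = 0.97), and neither of these 2 factors passed the test of the difference. On raw intensities, GATA6 was not lower in WM115 sort 2 (log2 ratio 0.06, bead standard error 0.11). Its raw log2 ratio in Caco2 sort 2 was 0.03 (bead standard error 0.1).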

How the results depend on the processing

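Of 325 values of the factors under alternatives, 317 kept their direction and their side of the threshold, and the counts of factor probes called, 0, 0, 0 and 5, were the same under every alternative. The other 8 changed sign between values that had not passed: in Caco2, FOXA3 was 0.041 without the high array of sort 1. In WM115, where CDX2 and FOXA3 are readings of background, without the high array of sort 1 HNF4G was -0.014, without that of sort 2 CDX2 was -0.025, and without the negative array of sort 2 HNF4G was -0.15, CDX2 -0.00093 and FOXA3 -0.076. The difference between lines was 0.0046 for FOXA3 without the high Caco2 array of sort 1 and 0.024 without the negative WM115 array of sort 2. Leaving out 1 array in turn, these values ran from -0.14 to 0.041 for FOXA3 in Caco2, in WM115 from -0.025 to 0.096 for CDX2, -0.15 to 0.20 for HNF4G and -0.076 to 0.15 for FOXA3, and from -0.20 to 0.024 for FOXA3 between lines. Over all tested probes, 107 were called in Caco2, 41 with median scaling, 56 with the sort as a replicate block, 1 in the fit of Caco2 alone, 0 by the methods' t-test and 8 to 80 without 1 array. In WM115, 3 were called, 0 in WM115 alone, 1 by the t-test and 3 to 249 without 1 array. For the difference between lines 9 were called, 3 at an offset of 50, 4 without a filter, 4 with the block and 0 to 153 without 1 array. The block changed no call of the factors themselves. FOXA1 lost its call under 12 of 17 alternatives, with an adjusted p of 0.454 with median scaling, 0.149 in Caco2 alone and 0.53 by the t-test. Medians over every tested probe of a list moved for the intestinal factors between lines (0.29), the colon (4.45) and melanocyte (-2.29) markers between lines and the fibroblast markers in Caco2 (0.12).

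With 2 arrays per group the median standard error of a difference within a line was 0.19 log2 units, which limits what could be called. In the fit of Caco2 alone and by the methods' t-test, ALB, AFP, FGB, FGA, MEP1A and DPP4 also missed the threshold, with adjusted p of 0.0648 to 0.149 and 0.617 to 0.677.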

Other observations

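Some transcription factors of the companion lists were higher in WM115 than in Caco2. PPARGC1A, a coactivator of oxidative metabolism and of hepatic glucose production, was detected on all 4 WM115 arrays and on 0 of 4 Caco2 arrays. It was at least 2.53-fold higher in WM115. MAF, a leucine zipper factor detected on the same arrays, was at least 1.61-fold higher there. Both passed the filter through WM115 alone, so their tests are no independent sign of direction. The fitted Caco2 minus WM115 differences, taken against background readings, were -1.78 for PPARGC1A (limma adjusted p = 4.63e-06) and -0.91 for MAF (0.000105).

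In the AC133 comparison of WM115, NR2F1, an orphan nuclear receptor, had a fitted difference of -1.04 with an adjusted p of 1, which rests on the negative array of sort 2, the only WM115 array on which it was detected. MYB, a factor of crypt progenitors, differed by -1.16 in Caco2 (adjusted p = 0.357), with -1.59 in sort 1 and -0.73 in sort 2. HHEX, a homeobox factor of liver and pancreas, differed by 1.10 (adjusted p = 0.319), with 0.95 and 1.26 in the sorts.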
